A study of Mus musculus with 6 samples.

Results

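The TNF superfamily ligands are trimeric cytokines of the immune system, and 10 of their genes were followed here by RNA sequencing of mouse macrophages: Tnf, Lta, Ltb, Tnfsf9, Tnfsf10, Tnfsf11, Tnfsf12, Tnfsf13, Tnfsf13b and Tnfsf14. They were taken by gene symbol from a table of read counts, and all 10 are among its 55023 genes. The rule goes by symbol and uses no measured value.

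The cells were bone marrow-derived macrophages, grown in culture from mouse marrow precursors and treated for 24 h. The 3 groups held 2 libraries each: LCL161 together with the lymphotoxin heterotrimer LTα1β2, LTα1β2 without LCL161, and vehicle. LCL161 is a small molecule of the SMAC mimetic kind, which antagonises cIAP1 and cIAP2, ubiquitin ligases that restrain cell death and NF-κB signalling. There was no group with LCL161 and no LTα1β2, so the antagonist is seen here in cells that also received the heterotrimer. Mouse strain, genotype, age and doses: not given in the sources used here. Whether the libraries of a group stem from different mice or dishes is also not stated. A p-value here thus sets a difference between groups against the spread of these libraries only, and that spread may be technical.

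Most of the ligands are made as membrane proteins that form trimers, and several are cut from the surface by proteases. Their receptors signal through TRAF adaptors to the classical and alternative NF-κB pathways, and some also carry a death domain. The proteins cIAP1 and cIAP2 help TNF receptor 1 to reach the classical pathway, and they hold back the alternative pathway by keeping the kinase NIK low. In macrophages TNF is the best known member, and it acts back on the cells that make it. The added LTα1β2 is a protein and does not itself enter the RNA counts of Lta and Ltb, the genes of its subunits.

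Total counts were 14718368 to 19049613 per library, and 3 reads, the limit that a count of 0 allows, corresponded to 0.139 to 0.23 CPM, the read count scaled to library size. Across genes, log2 CPM of the replicates correlated at 0.986 for LCL161 plus LTα1β2, 0.99 for LTα1β2 and 0.991 for vehicle, and the replicates differed by more than counting error in each group. The summed level of 8 macrophage markers was 32770 and 34496.5 CPM with LCL161 plus LTα1β2, 33715.3 and 33018.5 CPM with LTα1β2, and 27800 and 34260.8 CPM with vehicle, with none of the 8 at 0. Most of that sum was Lyz2, at 22313.4 to 28018.7 CPM, and single markers did move: 6 of the 8 rose with LTα1β2 against vehicle, 2 rose and 4 fell with the combination of LCL161 and LTα1β2 against LTα1β2, and 4 rose and 1 fell with it against vehicle. Genes were called changed at an adjusted p under 0.05 in edgeR's quasi-likelihood test, adjusted over 18812 genes. The share of all genes called is given below with each comparison. Log2 changes are given with a standard error (SE), derived as the size of the change divided by the square root of the test's F statistic. Scaling by total counts in place of TMM factors moved the median gene to a log2 change of -0.229 for LTα1β2 against vehicle, and 33% of the calls were then higher, beside 54.8% with TMM factors. For LCL161 plus LTα1β2 against LTα1β2 the median moved to -0.117 and the higher share to 28%, beside 41.2%. For LCL161 plus LTα1β2 against vehicle they moved to -0.264 and 24.6%, beside 46.6%. No ligand gene changed direction with that scaling.

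The reads behind the 10 genes ranged widely. Tnf had 465 to 5848 reads per library, and Tnfsf9, Tnfsf12 and Tnfsf13 had at least 41.5 reads in each library. The other 6 genes had under 20 reads in at least 1 library. Lta was the sparsest, with 48 reads over all 6 libraries and under 10 in 4 of them. Tnfsf11 had under 10 reads in 3 libraries, and Tnfsf10 and Tnfsf14 in 1 library each. Ltb stayed between 17 and 33.5 reads and Tnfsf13b between 15 and 91. All 10 genes passed the filter on low counts, but Lta reached its level only in the libraries with LCL161 plus LTα1β2, and Tnfsf11 reached it in both vehicle libraries, in 1 with LTα1β2 and in none with LCL161 plus LTα1β2. A gene that enters a test through its high group has to differ, so the counts of calls below describe these genes and do not weigh them against others.

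**Figure D1:**
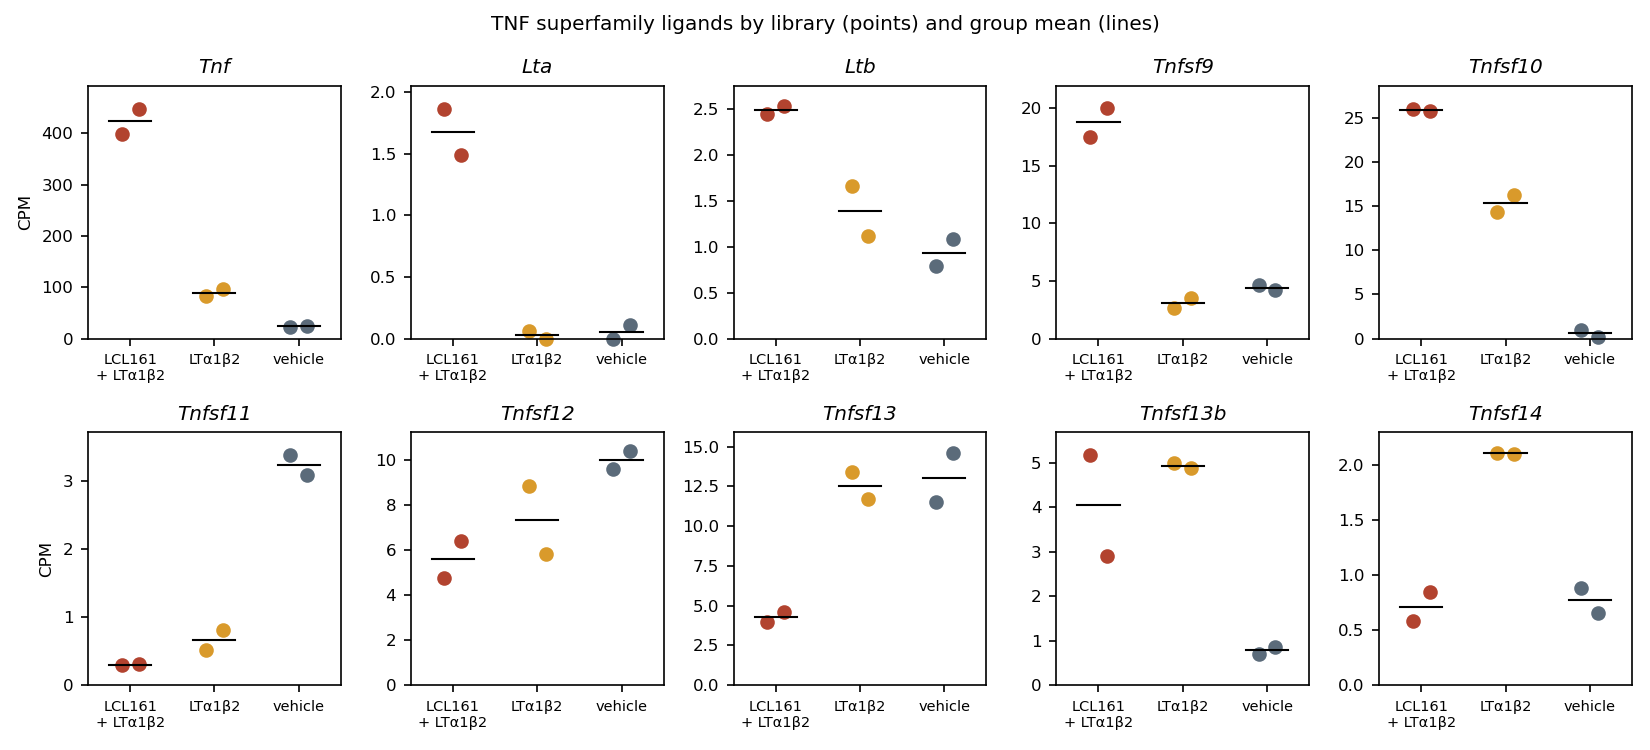
CPM of each of the 10 ligand genes (vertical axis, one panel per gene with its own scale from 0) in the 2 libraries of LCL161 plus LTα1β2, LTα1β2 and vehicle (points), with the group mean as a line. Tnf averages 423.9 CPM with LCL161 plus LTα1β2, 89.3 CPM with LTα1β2 and 23.6 CPM with vehicle, while Tnfsf11 is highest with vehicle, at 3.23 CPM.

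LTα1β2 against vehicle asks what the lymphotoxin signal does to these genes in macrophages. Of the 10 ligand genes, 4 rose (Tnf, Tnfsf10, Tnfsf13b and Tnfsf14) and 1 fell (Tnfsf11), while 5 did not pass the test. Over all 18812 genes tested 23.4% were called, 12.8% higher and 10.6% lower. The median log2 change was 0.25 over the ligand genes and -0.039 over all genes. The libraries of LTα1β2 and vehicle did not overlap for 8 of the 10 ligand genes, and for 63.3% of all genes. Calls over the whole table numbered 4401 and depended on each library: leaving out LTα1β2 replicate 1 gave 2457 calls and its replicate 2 gave 2499, while leaving out vehicle replicate 1 gave 1930 and its replicate 2 gave 2807. With each of these 4 libraries left out in turn, the ligand genes called were the 4 without Tnfsf14.

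Adding LCL161 to LTα1β2 changed a different combination of the ligands. Against LTα1β2, 3 genes rose (Tnf, Lta and Tnfsf9) and 2 fell (Tnfsf13 and Tnfsf14), while 5 did not pass. Over all genes 25.7% were called, 10.6% higher and 15.1% lower, and the median log2 change was 0.24 over the ligand genes and 0.004 over all genes. The libraries did not overlap for 8 of the 10 ligand genes, and for 67.8% of all genes. Without LTα1β2 replicate 2 the ligand genes called were 3 (Tnf, Tnfsf9 and Tnfsf13), and the called genes over the whole table were 2332 in place of 4832.

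Against vehicle, LCL161 plus LTα1β2 changed 9 of the 10 genes: Tnf, Lta, Ltb, Tnfsf9, Tnfsf10 and Tnfsf13b rose, Tnfsf11, Tnfsf12 and Tnfsf13 fell, and Tnfsf14 did not pass. Over all genes 39.5% were called, 18.4% higher and 21.1% lower, and the median log2 change was 1.75 over the ligand genes and 0.047 over all genes. The libraries did not overlap for 9 of the 10 ligand genes, and for 73.8% of all genes. Called genes over the whole table were 7431, and 4885 without vehicle replicate 1. The 3 comparisons share libraries, so their calls are not independent of each other.

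**Figure D2:**
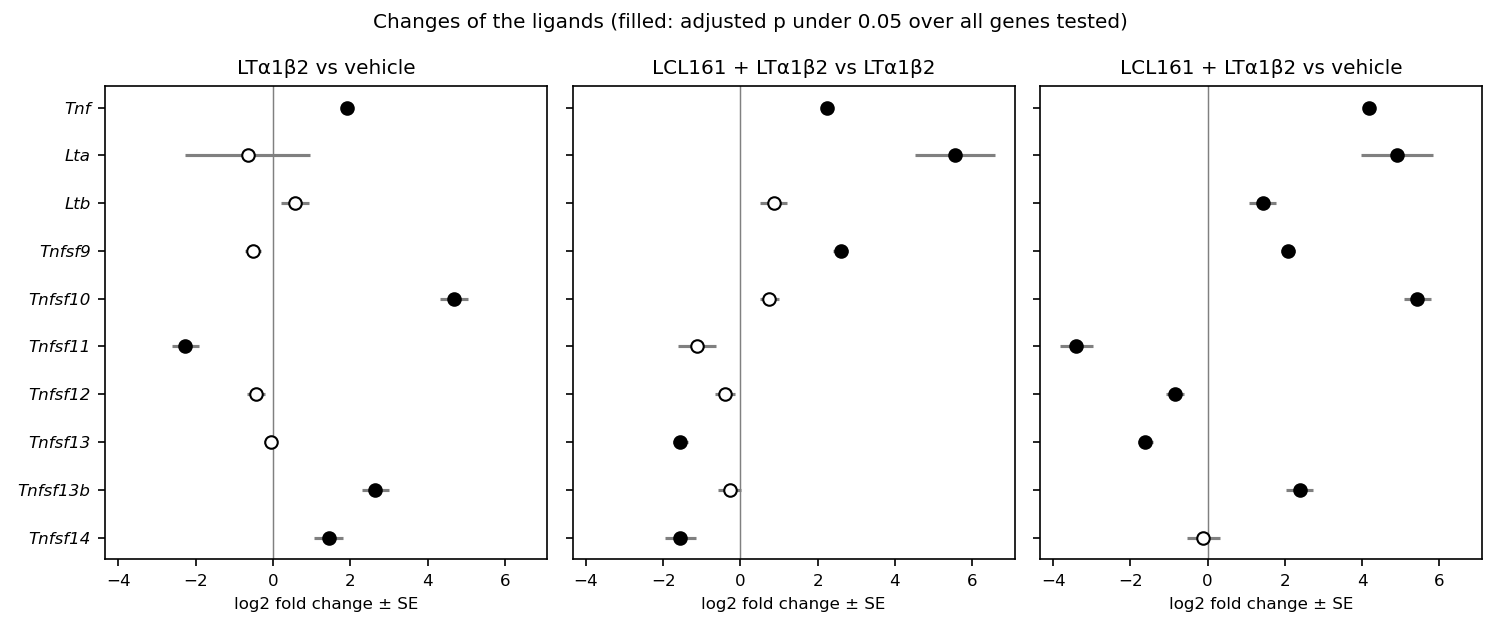
Log2 fold change of each ligand gene (rows) with its SE (horizontal bars) in the 3 comparisons, with filled points for an adjusted p under 0.05 over all genes tested. Tnf lies to the right in all 3 comparisons, at 1.92 for LTα1β2 against vehicle and 4.17 for LCL161 plus LTα1β2 against vehicle, and Lta has the widest bars, with an SE of 0.92 to 1.61.

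Tnf encodes tumour necrosis factor, the inflammatory cytokine that binds the receptors encoded by Tnfrsf1a and Tnfrsf1b. Its level was 399.9 and 447.9 CPM with LCL161 plus LTα1β2, 82.6 and 96.1 CPM with LTα1β2, and 22.0 and 25.1 CPM with vehicle. The 3 groups were apart in every library, with the combination highest and vehicle lowest. Tnf rose 3.79-fold with LTα1β2 against vehicle (log2 1.92, SE 0.13, adjusted p = 5.26e-05). With LCL161 added it rose a further 4.74-fold against LTα1β2 (log2 2.25, SE 0.12, adjusted p = 4.68e-05). Against vehicle the combination was 18.0-fold higher (log2 4.17, SE 0.14, adjusted p = 9.18e-07). These calls held in each of the 14 alternative analyses.

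Lta encodes lymphotoxin α, which forms a soluble homotrimer and is also the α subunit of LTα1β2. It had 25.5 and 19.5 reads with LCL161 plus LTα1β2, 1 and 0 reads with LTα1β2, and 0 and 2 reads with vehicle. Nearly every read of the gene therefore came from the combination, at 1.86 and 1.49 CPM there. In rounded counts these are 45 reads with the combination, 1 with LTα1β2 and 2 with vehicle. The ratio to LTα1β2, scaled to library size, was 57.7 with a 95% exact interval of 9.84 to 2327.7 that covers counting error only. The ratio to vehicle was 33.7, with an interval of 8.79 to 286.5. edgeR's fit called Lta against LTα1β2 (log2 5.55, SE 1.03, adjusted p = 0.00706) and against vehicle (log2 4.90, SE 0.92, adjusted p = 0.00431). Lta reached the level of the filter only with the combination. It thus entered the test through its high group, and these calls add no support to the reads. The size of the change hangs on single reads: without LTα1β2 replicate 1 the log2 change against LTα1β2 was 7.87, and without LTα1β2 replicate 2 it was 4.56 with an adjusted p of 0.0547. Against vehicle, leaving out vehicle replicate 1 gave 3.84 and leaving out its replicate 2 gave 7.80. Between LTα1β2 and vehicle the reads cannot show a difference, with a ratio of 0.584 and an interval of 0.00989 to 11.2.

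Ltb encodes lymphotoxin β, the membrane-bound subunit of LTα1β2. It had 33.5 and 33 reads with LCL161 plus LTα1β2 (2.44 and 2.53 CPM), 26 and 21 reads with LTα1β2 (1.66 and 1.12 CPM), and 17 and 20 reads with vehicle (0.787 and 1.08 CPM). The groups did not overlap, but only the comparison of the combination with vehicle passed the test (log2 1.42, SE 0.36, adjusted p = 0.0163). That call was lost without LCL161 plus LTα1β2 replicate 1 (adjusted p = 0.0505), without its replicate 2 (0.0652) and without vehicle replicate 1 (0.116). The log2 change was 0.57 (SE 0.37, adjusted p = 0.324) for LTα1β2 against vehicle and 0.86 (SE 0.35, adjusted p = 0.109) for the combination against LTα1β2.

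Tnf, Lta and Ltb are neighbours in the class III region of the mouse MHC. In GENCODE M21 on GRCm38 they lie on chromosome 17, Ltb at 35194439-35196320 on the plus strand, Tnf at 35199381-35202007 on the minus strand and Lta at 35203165-35205351 on the minus strand. The gap is 3060 bases between Ltb and Tnf and 1157 bases between Tnf and Lta. All 3 genes rose with the combination against vehicle, so their promoters are shown for comparison. They come from RefSeq on GRCm38.p6 and run from 250 bases before to 50 bases after the start of the gene, 5′ to 3′ on the strand of the gene. That start is RefSeq's, which is the GENCODE start for Tnf and Lta and lies 68 bases downstream of it for Ltb, at 35194507. Tnf is at chr17:35201958-35202257 (minus), Lta at chr17:35205302-35205601 (minus) and Ltb at chr17:35194257-35194556 (plus). Capitals mark matches to the motifs named below.
Tnf: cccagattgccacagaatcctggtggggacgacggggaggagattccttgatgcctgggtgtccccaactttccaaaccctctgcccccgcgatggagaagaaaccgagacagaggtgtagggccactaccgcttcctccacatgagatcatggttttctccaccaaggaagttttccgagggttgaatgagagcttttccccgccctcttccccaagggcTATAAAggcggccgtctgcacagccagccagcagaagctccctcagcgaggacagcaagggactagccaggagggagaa
Lta: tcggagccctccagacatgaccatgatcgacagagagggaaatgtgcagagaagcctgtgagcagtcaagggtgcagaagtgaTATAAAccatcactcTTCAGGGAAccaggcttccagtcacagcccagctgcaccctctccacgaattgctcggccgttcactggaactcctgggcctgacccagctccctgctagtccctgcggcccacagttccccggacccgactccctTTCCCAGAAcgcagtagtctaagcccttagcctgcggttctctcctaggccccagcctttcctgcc
Ltb: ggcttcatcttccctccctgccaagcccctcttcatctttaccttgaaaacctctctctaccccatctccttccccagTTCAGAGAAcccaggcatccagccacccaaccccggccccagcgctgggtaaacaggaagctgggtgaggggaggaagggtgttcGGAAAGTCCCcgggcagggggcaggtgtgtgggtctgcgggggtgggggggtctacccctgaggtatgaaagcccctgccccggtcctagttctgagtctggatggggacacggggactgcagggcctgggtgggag

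Matches to 4 motifs were looked for on both strands: the TATA box (TATAAA), the GAS element of STAT factors (TTCNNNGAA, a palindrome), the core of the interferon-stimulated response element (ISRE core, GAAANNGAA) and the κB consensus of NF-κB. The capitals in Tnf are a TATA box at -29 to -24 from the RefSeq start, from which all positions are counted. In Lta they are a TATAAA match at -167 to -162 and GAS matches at -152 to -144 and at -16 to -8. In Ltb they are a GAS match at -172 to -164 and a κB match, read on the opposite strand, at -87 to -78. Of the 32851 promoters in the table, 13.6% hold TATAAA, 8.3% the GAS letters, 8.56% the ISRE core and 8.46% the κB consensus. The table holds 8 of the 10 ligand genes in 9 windows. Of these 8 genes, 3 had TATAAA (Tnf, Lta and, on the opposite strand, Tnfsf11), 2 the GAS letters, 1 the ISRE core and 1 the κB consensus. A match describes the letters in this window and is neither a bound site nor a cause of these levels.

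Tnfsf14 encodes LIGHT, which binds the lymphotoxin β receptor, as LTα1β2 does, and also HVEM, the product of Tnfrsf14. It had 8 and 11 reads with LCL161 plus LTα1β2 (0.584 and 0.842 CPM), 33 and 39.25 reads with LTα1β2 (2.11 and 2.10 CPM), and 19 and 12.17 reads with vehicle (0.88 and 0.658 CPM). The LTα1β2 libraries were above all others, and the remaining groups overlapped. It rose with LTα1β2 against vehicle (log2 1.44, SE 0.38, adjusted p = 0.029) and was lower with LCL161 added than with LTα1β2 (log2 -1.55, SE 0.40, adjusted p = 0.027). Both calls are close to the threshold. The rise was lost in DESeq2 (adjusted p = 0.0657) and without either library of LTα1β2 or of vehicle (0.0832 without LTα1β2 replicate 1, 0.106 without its replicate 2, 0.112 without vehicle replicate 1, 0.163 without its replicate 2). The fall was lost in DESeq2 (0.0658) and without LCL161 plus LTα1β2 replicate 1 (0.12), LTα1β2 replicate 1 (0.0605) or LTα1β2 replicate 2 (0.0977). Against vehicle the combination had a log2 change of -0.11 (SE 0.43, adjusted p = 0.857).

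Neutrophil markers had a like order. The summed level of 8 of them, led by S100a8, was 356.3 and 372.3 CPM with LCL161 plus LTα1β2, 942.6 and 726.8 CPM with LTα1β2, and 447.0 and 635.8 CPM with vehicle, with none at 0. Of the 8, 4 rose with LTα1β2 against vehicle, and 5 fell with the combination against LTα1β2, among them Ngp (log2 -1.96, adjusted p = 0.00117). With the combination against vehicle 1 rose and 5 fell. Over all genes, 12.8% rose with LTα1β2 against vehicle and 15.1% fell with the combination against LTα1β2. With the combination against vehicle, 18.4% of all genes rose and 21.1% fell. The part of such cells in the level of Tnfsf14, or in that of Tnfsf13 described below, was not tested.

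Tnfsf9 encodes the 4-1BB ligand, which costimulates T cells through the receptor encoded by Tnfrsf9. It had 240 and 261.5 reads with LCL161 plus LTα1β2 (mean 18.8 ± 1.78 CPM, SD, n = 2), 41.5 and 65 reads with LTα1β2 (mean 3.06 ± 0.585 CPM), and 99.5 and 77.92 reads with vehicle (mean 4.41 ± 0.279 CPM). The combination stood above both other groups, and LTα1β2 lay slightly below vehicle without overlap. Tnfsf9 rose 6.06-fold with the combination against LTα1β2 (log2 2.60, SE 0.19, adjusted p = 0.000128) and 4.24-fold against vehicle (log2 2.08, SE 0.18, adjusted p = 6.71e-05). LTα1β2 against vehicle gave a log2 change of -0.52 (SE 0.20, adjusted p = 0.101), which passed only under scaling by total counts (log2 -0.71, adjusted p = 0.0313). Tnfsf9 and Tnfsf14 lie 81734 bases apart on chromosome 17, at 57105325-57107757 on the plus strand and 57189492-57194177 on the minus strand. Against LTα1β2 the combination raised Tnfsf9, while Tnfsf14 was lower. Of the exon bases of Tnfsf9, 192 (14.9%) overlap the predicted gene Gm11110 on the other strand, and whether strand was used in counting was not given in the sources used here.

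Tnfsf10, on chromosome 3 at 27317028-27342427 (plus strand), encodes TRAIL, a ligand that triggers death receptors. It had 356 and 337 reads with LCL161 plus LTα1β2 (26.0 and 25.8 CPM), 226 and 304 reads with LTα1β2 (14.4 and 16.3 CPM), and 20 and 4 reads with vehicle (0.926 and 0.216 CPM). The groups did not overlap, and the gap between either treatment and vehicle was far wider than that between the treatments. Tnfsf10 rose with LTα1β2 against vehicle (log2 4.68, SE 0.36, adjusted p = 0.00013) and with the combination against vehicle (log2 5.43, SE 0.36, adjusted p = 1.88e-05). The vehicle libraries decide the size: with replicate 1 of vehicle left out the log2 change was 6.09 for LTα1β2 and 6.80 for the combination, and with replicate 2 left out it was 4.04 for LTα1β2 and 4.75 for the combination, with all 4 passing. The combination against LTα1β2 had a log2 change of 0.75 (SE 0.25, adjusted p = 0.0642), on the edge of the threshold. That difference passed in 7 of the 14 alternative analyses, among them DESeq2 (0.0158) and limma voom (0.0142), and did not pass in the other 7, with adjusted p-values up to 0.238.

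Tnfsf13b, on chromosome 8 at 10006467-10039072 (plus strand), encodes BAFF, the B cell survival factor, and Tnfsf13 encodes APRIL, which shares its receptors TACI and BCMA. Tnfsf13b had 71 and 38 reads with LCL161 plus LTα1β2 (5.18 and 2.91 CPM), 78 and 91 reads with LTα1β2 (4.98 and 4.87 CPM), and 15 and 16 reads with vehicle (0.694 and 0.865 CPM). Both treatments stood above vehicle and overlapped each other, and the combination's replicates lay apart. Tnfsf13b rose 6.30-fold with LTα1β2 (log2 2.65, SE 0.34, adjusted p = 0.00151) and 5.19-fold with the combination (log2 2.38, SE 0.35, adjusted p = 0.00126) against vehicle. The combination against LTα1β2 had a log2 change of -0.28 (SE 0.29, adjusted p = 0.501), and of 0.01 without LCL161 plus LTα1β2 replicate 2.

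Tnfsf13 went another way. Its level was 3.94 and 4.61 CPM with LCL161 plus LTα1β2, 13.4 and 11.7 CPM with LTα1β2, and 11.5 and 14.6 CPM with vehicle. LTα1β2 and vehicle overlapped, and the combination lay below both. It fell with the combination against LTα1β2 (log2 -1.55, SE 0.19, adjusted p = 0.00114) and against vehicle (log2 -1.61, SE 0.19, adjusted p = 0.000399). LTα1β2 against vehicle had a log2 change of -0.06 (SE 0.17, adjusted p = 0.846), whose sign was not stable.

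RefSeq gives Tnfsf13b a pair of overlapping promoter windows on GRCm38.p6. The second, at chr8:10006383-10006682 (plus), is shown because it holds the ISRE core, in capitals at -16 to -8 from its start at 10006633 (166 bases downstream of the GENCODE start), the only match to that motif among the ligand windows.
Tnfsf13b: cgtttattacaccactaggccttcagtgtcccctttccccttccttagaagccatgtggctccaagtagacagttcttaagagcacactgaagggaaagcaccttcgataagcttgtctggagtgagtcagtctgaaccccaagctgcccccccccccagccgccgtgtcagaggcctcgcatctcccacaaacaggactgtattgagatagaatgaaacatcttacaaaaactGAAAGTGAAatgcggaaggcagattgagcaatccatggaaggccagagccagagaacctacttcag

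Tnfsf12 encodes TWEAK, the ligand of Fn14, which Tnfrsf12a encodes. Its level was 4.77 and 6.39 CPM with LCL161 plus LTα1β2, 8.85 and 5.83 CPM with LTα1β2, and 9.61 and 10.4 CPM with vehicle. The combination lay below vehicle, and LTα1β2 overlapped the combination. Only the combination against vehicle passed (log2 -0.85, SE 0.24, adjusted p = 0.0262). That call was lost without LCL161 plus LTα1β2 replicate 1 (adjusted p = 0.103), vehicle replicate 1 (0.0589) or vehicle replicate 2 (0.0842). The log2 change was -0.45 (SE 0.23, adjusted p = 0.208) for LTα1β2 against vehicle and -0.40 (SE 0.25, adjusted p = 0.263) for the combination against LTα1β2.

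Tnfsf12 and Tnfsf13 are uncertain as separate genes. They lie 465 bases apart on the minus strand of chromosome 11, Tnfsf13 at 69682846-69685784 and Tnfsf12 at 69686250-69695849, and the annotated read-through gene Tnfsfm13 spans exons of both. Tnfsfm13 shares 731 exon bases (48.3%) of Tnfsf12 and 983 (60%) of Tnfsf13, and 221 exon bases (13.5%) of Tnfsf13 overlap Tnfsf13os on the other strand. The counts of both ligands were not whole in 5 of the 6 libraries. Tnfsfm13 averaged 7.55 ± 0.668 CPM with LCL161 plus LTα1β2, 16.5 ± 1.85 CPM with LTα1β2 and 17.7 ± 1.93 CPM with vehicle (SD, n = 2 each). It fell with the combination against LTα1β2 (log2 -1.12, adjusted p = 0.00238), and so did Tnfsf13os (log2 -1.56, adjusted p = 0.00268). The 4 genes cannot be told apart wholly from these counts.

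Tnfsf11, on chromosome 14 at 78277445-78308043 (minus strand), encodes RANKL, the osteoclast differentiation factor, which in bone is made mainly by osteoblast-lineage and stromal cells and by T cells. It had 4 and 4 reads with LCL161 plus LTα1β2 (0.292 and 0.306 CPM), 8 and 15 reads with LTα1β2 (0.511 and 0.802 CPM), and 73 and 57 reads with vehicle (3.38 and 3.08 CPM). Vehicle was highest in both libraries, and no treated library reached it. Tnfsf11 fell with LTα1β2 (log2 -2.27, SE 0.35, adjusted p = 0.00354) and with the combination (log2 -3.40, SE 0.42, adjusted p = 0.000463) against vehicle. Only with vehicle did it reach the level of the filter in both libraries, so it entered the test through its high group. The combination against LTα1β2 had a log2 change of -1.13 (SE 0.49, adjusted p = 0.129). With 8 reads against 23, the ratio of counts there was 0.446, with an exact 95% interval of 0.172 to 1.03 for counting error.

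Markers of connective tissue moved with Tnfsf11. The summed level of 9 stromal fibroblast markers was 394.5 and 444.8 CPM with LCL161 plus LTα1β2, 1527 and 2242.5 CPM with LTα1β2, and 6325.2 and 3827 CPM with vehicle. Of the 8 of these markers that were tested, 6 fell in each of the 3 comparisons, and Lum was at 0 in 1 library. Over all genes, 10.6% fell with LTα1β2 against vehicle, 15.1% with the combination against LTα1β2 and 21.1% with the combination against vehicle. The summed level of 7 osteoblast markers was 629.8 and 666.1 CPM with LCL161 plus LTα1β2, 993.8 and 1540.6 CPM with LTα1β2, and 2949.8 and 2122.8 CPM with vehicle, with Bglap at 0 in 5 libraries. Nearly all of that sum was Spp1, which macrophages express too. The other 6 osteoblast markers summed to 9.21 and 9.15 CPM with LCL161 plus LTα1β2, 15.6 and 22.3 CPM with LTα1β2, and 95.4 and 37.1 CPM with vehicle, which is the same order of groups. In bulk RNA, fewer cells of a type and less RNA per cell cannot be told apart. The part of these cells in the level of Tnfsf11 was not tested.

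**Figure D3:**
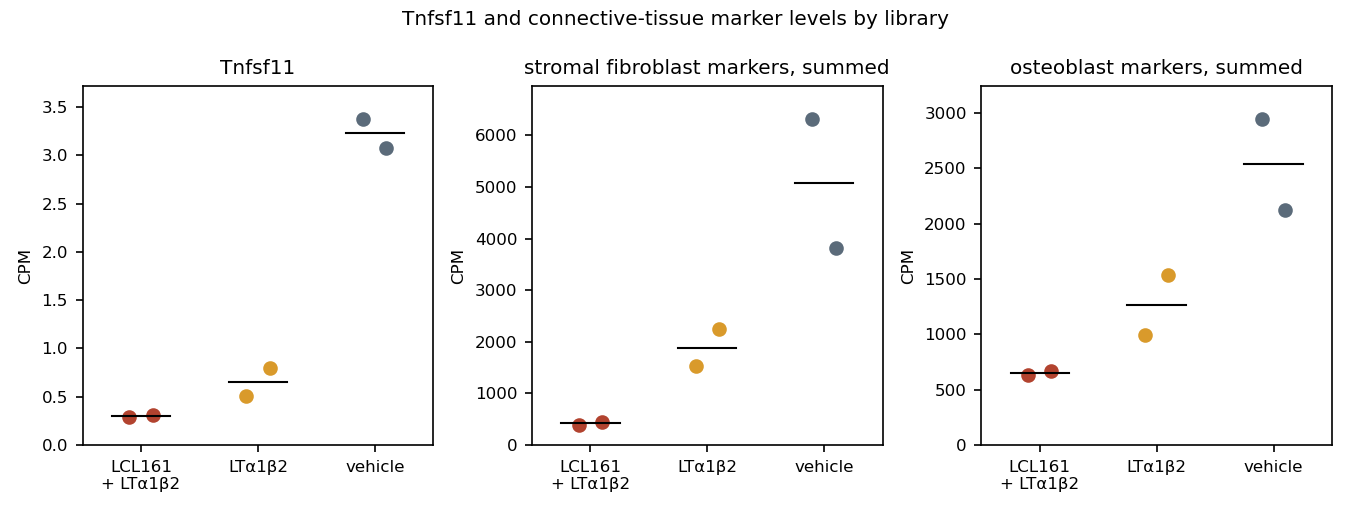
CPM of Tnfsf11 and summed CPM of the stromal fibroblast and osteoblast marker lists (vertical axes from 0) in the 2 libraries of LCL161 plus LTα1β2, LTα1β2 and vehicle (points, with the group mean as a line). The osteoblast sum is nearly all Spp1. All 3 panels are highest in vehicle, with Tnfsf11 at 3.38 and 3.08 CPM there.

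Lymphocyte genes were also looked at, because Lta, Ltb, Tnfsf14 and Tnfsf11 are well known from lymphocytes. The summed level of 8 T cell markers was 6.2 and 6.51 CPM with LCL161 plus LTα1β2, 9.41 and 12.3 CPM with LTα1β2, and 9.3 and 13.6 CPM with vehicle, with Cd8a at 0 in 5 libraries. The 6 B cell markers summed to 17.2 and 12.9 CPM with the combination, 21.5 and 19.9 CPM with LTα1β2, and 37.3 and 35.9 CPM with vehicle. Single genes set both orders, Cd4 and Ebf1. The 7 T cell markers without Cd4 summed to 3.79 and 4.14 CPM with the combination, 2.65 and 2.59 CPM with LTα1β2, and 3.01 and 2.79 CPM with vehicle. That sum was highest with the combination, but single T cell markers went both ways. Of the 5 tested, 1 rose and 2 fell with the combination against vehicle, beside 18.4% and 21.1% of all genes. Trac was among those that fell (log2 -2.58, adjusted p = 0.00786). The 5 B cell markers without Ebf1 overlapped between the combination and LTα1β2, at 12.4 and 8.24 CPM with the combination, 11.8 and 4.57 CPM with LTα1β2, and 7.0 and 5.86 CPM with vehicle. The 6 NK cell markers summed to 10.3 and 9.96 CPM with the combination, 9.03 and 8.55 CPM with LTα1β2, and 1.37 and 1.41 CPM with vehicle. Most of the sum in both treatments was Klrk1, at 6.68 and 7.31 CPM with the combination, 7.75 and 7.97 CPM with LTα1β2, and 0.185 and 0.351 CPM with vehicle. Without Klrk1 the sum was 3.58 and 2.64 CPM with the combination, 1.28 and 0.588 CPM with LTα1β2, and at most 1.18 CPM with vehicle, so only the combination stood apart. The part of lymphocytes or NK cells in the levels of Lta, Ltb and Tnfsf10 was not tested. Of 7 dendritic cell markers, led by Itgax, 5 rose with the combination against vehicle, beside 18.4% of all genes. The part of dendritic cells in the ligand levels was not tested either.

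Between genes, levels were compared as CPM per kilobase of exon, with no test. Exon length took all annotated exons of a gene merged, and transcripts in these cells may be shorter. It was 5266 bases for Tnfsf10 and 6868 for Tnfsf13b, but 1290 for Tnfsf9. Tnf was the most abundant ligand in every group, at 258.6 CPM per kb with LCL161 plus LTα1β2, 54.5 with LTα1β2 and 14.4 with vehicle. It made up 89.6% and 89.7% of the summed ligand level in the libraries of the combination, 69.6% and 74.8% with LTα1β2, and 40.5% and 41.3% with vehicle. Behind it the order changed. With LCL161 plus LTα1β2, Tnfsf9 was next (14.5 CPM per kb), then Tnfsf10 (4.92), Tnfsf12 (3.68), Tnfsf13 (2.61), Ltb (1.64), Lta (1.21), Tnfsf13b (0.589), Tnfsf14 (0.386) and Tnfsf11 (0.134). With LTα1β2, Tnfsf13 was next (7.67 CPM per kb), then Tnfsf12 (4.84), Tnfsf10 (2.91), Tnfsf9 (2.37), Tnfsf14 (1.14), Ltb (0.918), Tnfsf13b (0.717), Tnfsf11 (0.293) and Lta (0.0231). With vehicle, Tnfsf13 was again next (8.0 CPM per kb), then Tnfsf12 (6.6), Tnfsf9 (3.42), Tnfsf11 (1.44), Ltb (0.616), Tnfsf14 (0.416), Tnfsf13b (0.114), Tnfsf10 (0.108) and Lta (0.0391). Neighbours in these orders overlapped between libraries only for Tnfsf13b and Tnfsf14 with the combination, and for Tnfsf13b and Tnfsf10 and for Tnfsf10 and Lta with vehicle. The APRIL and TWEAK genes, which share exons with Tnfsfm13, thus stood right behind Tnf in the groups without LCL161, and the 4-1BB ligand gene did so with it.

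**Figure D4:**
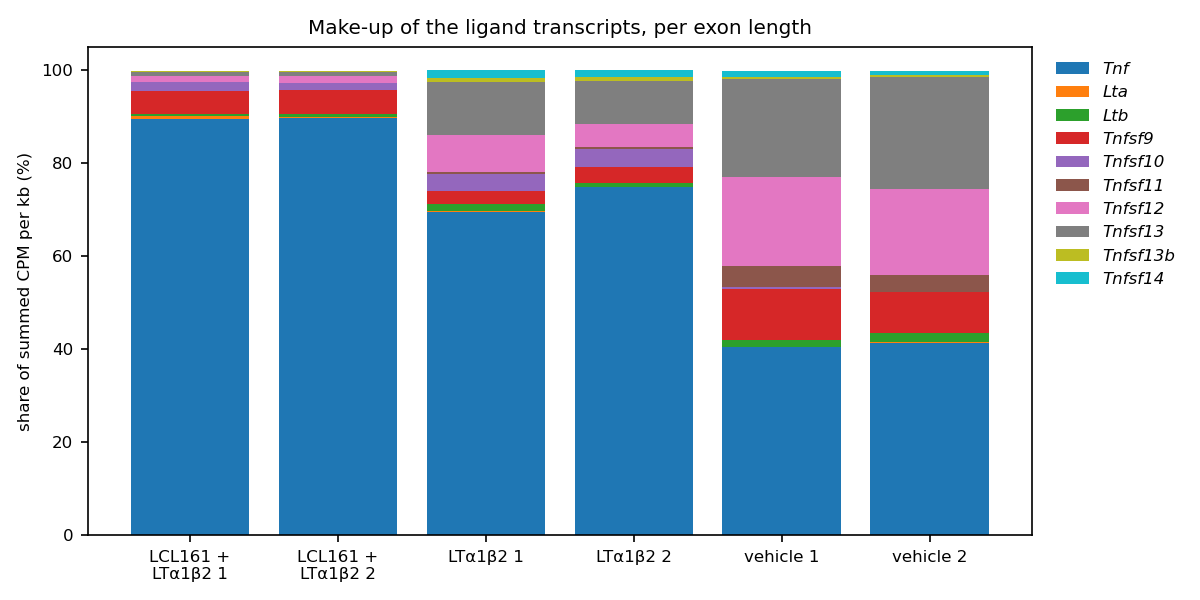
Share (%) of each ligand gene in the summed CPM per kb of all 10 genes, as stacked bars from 0 for each of the 6 libraries of LCL161 plus LTα1β2, LTα1β2 and vehicle. Tnf takes 89.6% and 89.7% with LCL161 plus LTα1β2, and 40.5% and 41.3% with vehicle.

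For each ligand gene, the genes with the most similar pattern were sought among 10038 genes with a mean of at least 5 CPM, as the root mean square distance of centred log2(CPM + 0.5) over the 6 libraries. The added 0.5 CPM flattens the patterns of sparse genes such as Lta, Ltb, Tnfsf11 and Tnfsf14. Nearest to Tnf were Icam1 (0.14) and Gca (0.21), to Lta Clec4n (0.08) and Ptgir (0.14), and to Ltb Ggh (0.06) and Slc22a4 (0.08). Nearest to Tnfsf9 were Src and Tank (0.14 each), and to Tnfsf14 Il4ra (0.09) and Arhgap21 (0.10). Nearest to Tnfsf10 were Olfr56 (0.23), whose exons overlap Ifi47, and Dnase1l3 (0.25). Nearest to Tnfsf13b were Slc28a2 (0.20) and Cd180 (0.22), to Tnfsf13 Rin3 (0.06) and Hpgds (0.07), and to Tnfsf12 Prxl2b (0.10) and Tfdp2 (0.11). Nearest to Tnfsf11 were Prkab2 (0.09) and Fkbp14 (0.12). Tnfsf10 and Tnfsf13b had the widest distance to their nearest gene. Because the added 0.5 CPM can shorten the distances of sparse genes, distances of ligands with unlike read numbers are not comparable.

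Among 8 further ligand genes of the superfamily, 3 had enough reads to be tested. With LCL161 plus LTα1β2, 2 of the 3 rose against LTα1β2, and against vehicle 2 rose and 1 fell. Over all genes, 10.6% rose against LTα1β2, and against vehicle 18.4% rose and 21.1% fell. With LTα1β2 against vehicle the adjusted p-value was 0.37 for Tnfsf4, 0.966 for Tnfsf15 and 0.071 for Eda. Tnfsf4, the gene of OX40 ligand, which costimulates T cells, had 79 and 53 reads with LCL161 plus LTα1β2, 4 and 2 reads with LTα1β2, and 5 and 9 reads with vehicle. Most of its reads were in the combination, and as for Lta it reached the level of the filter (0.609 CPM) only there, so it entered the test through its high group. It rose against LTα1β2 (log2 4.75, SE 0.52, adjusted p = 0.000674), by 5.37 without LTα1β2 replicate 1, and against vehicle (log2 3.78, SE 0.46, adjusted p = 0.00045). Tnfsf15, the gene of TL1A, averaged 5.22 ± 0.667 CPM with the combination, 1.76 ± 0.672 CPM with LTα1β2 and 1.77 ± 0.0537 CPM with vehicle (SD, n = 2 each). It rose against LTα1β2 (log2 1.58, adjusted p = 0.00786) and against vehicle (log2 1.56, adjusted p = 0.0044). Eda, the gene of ectodysplasin, fell with the combination against vehicle at the threshold (log2 -2.01, adjusted p = 0.0488), a call that was lost in DESeq2 (0.0654), in limma voom (0.0573) and with any library of the combination or of vehicle left out (0.083 to 0.212).

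The receptors of the 10 ligands were split in direction. Of 14 listed genes 13 were tested (Tnfrsf17, the gene of BCMA, was not). With LTα1β2 against vehicle 4 rose and 4 fell (median log2 change -0.02), with the combination against LTα1β2 2 rose and 6 fell (-0.39), and with the combination against vehicle 5 rose and 5 fell (-0.10). Over all genes, 12.8% rose and 10.6% fell with LTα1β2 against vehicle. With the combination 10.6% rose and 15.1% fell against LTα1β2, and 18.4% rose and 21.1% fell against vehicle. Tnfrsf1a, the death domain receptor TNFR1, averaged 174.7 ± 5.18 CPM with LCL161 plus LTα1β2, 277.8 ± 1.68 CPM with LTα1β2 and 128.3 ± 8.33 CPM with vehicle (SD, n = 2 each). Tnfrsf1b, the gene of TNFR2, averaged 2137.4 ± 118.1 CPM with LCL161 plus LTα1β2, 992.7 ± 10.3 CPM with LTα1β2 and 756.9 ± 144.1 CPM with vehicle. With LCL161 added to LTα1β2, Tnfrsf1a fell (log2 -0.67, adjusted p = 0.00197) and Tnfrsf1b rose (log2 1.11, adjusted p = 0.00121), so the receptors of TNF moved apart in that comparison. With LTα1β2 against vehicle Tnfrsf1a rose (log2 1.11, adjusted p = 0.000198) and Tnfrsf1b had a log2 change of 0.39 (adjusted p = 0.0802). With the combination against vehicle both rose, Tnfrsf1a with a log2 change of 0.45 (adjusted p = 0.00717) a call that 11 of the 14 alternative analyses made, and Tnfrsf1b with a fold of 2.82 (adjusted p = 0.000112).

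Tnfrsf9, which encodes 4-1BB, went the same way as its ligand with the combination. It had 42 and 49 reads with LCL161 plus LTα1β2, 15 and 9 reads with LTα1β2, and 14 and 14 reads with vehicle, and it rose against LTα1β2 (log2 2.26, SE 0.40, adjusted p = 0.00614). Tnfrsf14, which encodes HVEM, was at 31.3 and 33.5 CPM with the combination, 22.9 and 27.1 CPM with LTα1β2, and 4.17 and 4.38 CPM with vehicle. It rose with LTα1β2 (log2 2.55, adjusted p = 2.71e-05) and with the combination (log2 2.92, adjusted p = 5.51e-06) against vehicle. Ltbr, the receptor of the added LTα1β2, averaged 76.1 ± 6.46 CPM with the combination, 99.4 ± 1.75 CPM with LTα1β2 and 75.6 ± 1.74 CPM with vehicle (SD, n = 2 each). It was higher with LTα1β2 than with vehicle (log2 0.39, adjusted p = 0.0259) and fell by 0.39 with LCL161 added (adjusted p = 0.0272). The first of these calls held in 9 of the 14 alternative analyses and the second in 11.

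Around RANKL, the decoy receptor and the signalling receptor differed. Tnfrsf11b, which encodes osteoprotegerin, the secreted decoy of RANKL, was at 15.1 and 13.1 CPM with LCL161 plus LTα1β2, 53.4 and 67.1 CPM with LTα1β2, and 211.1 and 212.7 CPM with vehicle. It fell with the combination against LTα1β2 (log2 -2.10, adjusted p = 0.00011) and against vehicle (log2 -3.91, adjusted p = 1.73e-06), and with LTα1β2 against vehicle (log2 -1.81, adjusted p = 9.37e-05). It is also a product of stromal cells. Most of the stromal markers given beside Tnfsf11 fell in the same comparisons, while Dcn and Thy1 did not pass in any. The part of stromal cells in the level of Tnfrsf11b was not tested. Tnfrsf11a, which encodes RANK, was at 55.4 and 113.3 CPM with the combination, 140.1 and 134.2 CPM with LTα1β2, and 43.6 and 41.7 CPM with vehicle. It rose with LTα1β2 (log2 1.69, adjusted p = 0.00523), while the combination against vehicle (log2 0.98, adjusted p = 0.0271) passed in 9 of the 14 alternative analyses and was 0.31 (adjusted p = 0.0924) without LCL161 plus LTα1β2 replicate 2. Tnfrsf12a, the TWEAK receptor gene, averaged 33.0 ± 2.19 CPM with the combination, 83.4 ± 14.5 CPM with LTα1β2 and 163.2 ± 5.58 CPM with vehicle (SD, n = 2 each). It fell with the combination against LTα1β2 (log2 -1.34, adjusted p = 0.000483) and against vehicle (log2 -2.31, adjusted p = 1.25e-05), and with LTα1β2 against vehicle (log2 -0.97, adjusted p = 0.00205). The TRAIL receptor gene Tnfrsf10b fell with LTα1β2 (log2 -1.13, adjusted p = 0.00231) and with the combination (log2 -1.42, adjusted p = 0.000366) against vehicle, where its ligand gene Tnfsf10 rose.

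**Figure D5:**
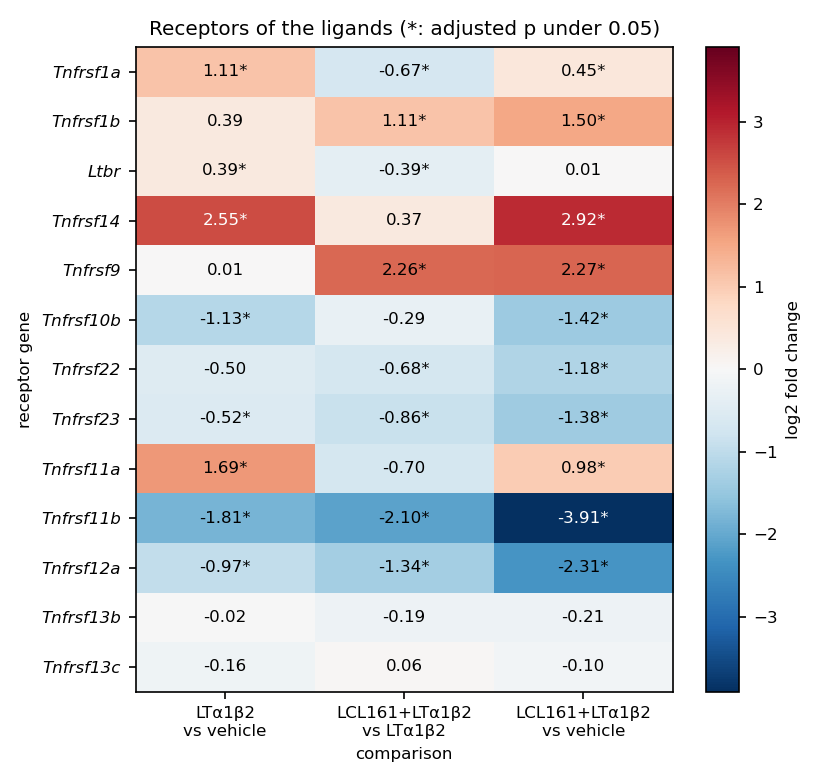
Heat map of the log2 fold change of each tested receptor gene (rows) in the 3 comparisons (columns), with a star for an adjusted p under 0.05 over all genes tested. Tnfrsf14 is at 2.92 and Tnfrsf11b at -3.91 for LCL161 plus LTα1β2 against vehicle.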

How the data were processed

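RNA of 6 libraries of bone marrow-derived macrophages was analysed, grouped by sample title. Expected counts were deposited by the authors for each gene, without normalisation, with 66.6% of the non-zero values whole. Per the submitters' processing notes, the build was GRCm38 and the tools were STAR 2.7.3a and DESeq2 1.26.0; the counting program was not given in the sources used here, nor its annotation or use of strand. Counts were rounded and tested in edgeR 4.0.16 (R 4.3.3) with group means over all 6 libraries, TMM factors, filterByExpr (minimum 10 reads) and Benjamini-Hochberg adjustment over 18812 genes, two-sided, and the steps were tested on simulated data. CPM used TMM-scaled library sizes; intervals cover counting error only. Positions came from GENCODE M21. The 14 alternatives included scaling, filters, DESeq2 1.42.0, limma 3.58.1 voom, the replicate number as a block, only the groups compared, and leaving out each library. The ligand genes, lists and the rule for named genes (all ligands, up to 5 called genes with the smallest p per list and comparison, the most abundant markers, the 2 nearest patterns) were chosen with earlier results of these data known. Tnfrsf11a, Tnfrsf14, Ltbr, Tnfsf13os, Tnfsfm13, Ifi47 and others named for their role were chosen after their values were seen.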

Additional observations from a re-analysis of the deposited data

How the results depend on the processing

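The ligand genes called under the 14 alternatives were 4 to 6 for LTα1β2 against vehicle (5 as reported), 3 to 6 for LCL161 plus LTα1β2 against LTα1β2 (5) and 7 to 9 for LCL161 plus LTα1β2 against vehicle (9). Leaving out each library in turn, calls over all genes ranged over 1930 to 4933 for LTα1β2 against vehicle, 2332 to 4604 for the combination against LTα1β2 and 4885 to 7285 for the combination against vehicle. Changes of sign were confined to log2 changes that did not pass the test. For LTα1β2 against vehicle, Tnfsf13 was at 0.02 with no filter beyond 1 read and ranged over -0.23 to 0.12 with a library left out, and Lta ranged over -2.96 to 2.30. Tnfsf13b ranged over -0.78 to 0.01 for the combination against LTα1β2, and Tnfsf14 over -0.46 to 0.12 for the combination against vehicle. The cause was not tested. Where the filter of an alternative removed Lta or Tnfsf11, it has no value there. Whether the replicate numbers pair the libraries is not stated in the sources used here. Deviations of same-numbered libraries correlated weakly between groups (0.145, 0.117 and 0.037), which does not decide it. With the replicate block, 4144 genes and 5 ligand genes were called for LTα1β2 against vehicle, 4629 and 5 for the combination against LTα1β2, and 7308 and 9 for the combination against vehicle. Few reads limit Lta, Tnfsf11, Tnfsf14 and Ltb, whose folds move with a few reads. The same holds for the folds of Tnfsf10 against vehicle, where it had 20 and 4 reads. Tnfsf13b was also low in vehicle, with 15 and 16 reads.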

Other observations

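Some genes that process TNF family ligands were called, in both directions. Adam17, the protease that sheds TNF, was at 752.7 and 738.6 CPM with LCL161 plus LTα1β2, 371.4 and 355.0 CPM with LTα1β2, and 267.0 and 284.9 CPM with vehicle. It rose with the combination against LTα1β2 (log2 1.04, adjusted p = 0.000278) and against vehicle (log2 1.43, adjusted p = 1.64e-05). With LTα1β2 against vehicle it also rose (log2 0.40, adjusted p = 0.0183), a call that 10 of the 14 alternative analyses made. Rhbdf2, the gene of iRhom2, a partner of the protease, averaged 187.0 ± 15.7 CPM with the combination, 154.8 ± 16.2 CPM with LTα1β2 and 64.3 ± 9.89 CPM with vehicle (SD, n = 2 each). It rose with LTα1β2 against vehicle (log2 1.27, adjusted p = 0.000744). Rhbdf1, of the same list, fell with LTα1β2 against vehicle (log2 -1.03, adjusted p = 0.0285). With the combination it fell against LTα1β2 (log2 -1.56, adjusted p = 0.00833) and against vehicle (log2 -2.59, adjusted p = 0.000337). Adam10 (log2 -0.59, adjusted p = 0.0226) and Furin (log2 -1.10, adjusted p = 0.00936) also fell with the combination against LTα1β2. Furin rose with LTα1β2 against vehicle (log2 1.20, adjusted p = 0.00694). For Furin the combination did not pass against vehicle (log2 0.10, adjusted p = 0.733). Sppl2a, which cuts the membrane stub of TNF, rose with the combination against LTα1β2 (log2 0.75, adjusted p = 0.00156) and against vehicle (log2 1.97, adjusted p = 6.31e-06). Sppl2a also rose with LTα1β2 against vehicle (log2 1.22, adjusted p = 0.000177). Timp3, an inhibitor of the protease that sheds TNF and a product of stromal cells too, fell with the combination against vehicle (log2 -2.26, adjusted p = 0.000172). It also fell with LTα1β2 against vehicle (log2 -1.80, adjusted p = 0.00138). The combination did not pass against LTα1β2 for Timp3 (log2 -0.46, adjusted p = 0.159). The part of stromal cells in its level was not tested. Of its exon bases, 1733 (21.3%) overlap Syn3 on the other strand. Of the 8 genes of this list, 4 rose and 2 fell with LTα1β2 against vehicle, with a median log2 change of 0.36. With the combination 2 rose and 3 fell against LTα1β2 (median -0.34), and 3 rose and 3 fell against vehicle (median 0.10), and Sppl2b did not pass in any comparison (adjusted p = 0.0936 for LTα1β2 against vehicle, 0.205 and 0.534 for the combination against LTα1β2 and against vehicle). Over all genes, 12.8% rose and 10.6% fell with LTα1β2 against vehicle. With the combination 10.6% rose and 15.1% fell against LTα1β2, and 18.4% rose and 21.1% fell against vehicle.

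Of 10 genes that act on the stability or translation of Tnf mRNA, 5 rose with LTα1β2 against vehicle, with a median log2 change of 0.40. Over all genes 12.8% rose there. Among the 5 were Hnrnpd (log2 3.02, adjusted p = 0.00598) and Mapkapk2 (log2 2.96, adjusted p = 0.00865). Hnrnpd averaged 57.8 ± 2.39 CPM with LTα1β2 and 7.12 ± 0.28 CPM with vehicle (SD, n = 2 each). Mapkapk2 averaged 326.8 ± 0.837 CPM with LTα1β2 and 42.1 ± 3.65 CPM with vehicle. With the combination 3 of the 10 fell against LTα1β2 (median -0.32), beside 15.1% of all genes. Against vehicle 2 rose and 1 fell with the combination (median 0.02), beside 18.4% and 21.1% of all genes. The 2 that rose were Hnrnpd and Mapkapk2, whose replicates of the combination lie far apart, at 150.5 and 554.5 reads for Hnrnpd and 1525 and 6100 reads for Mapkapk2. The log2 change of Hnrnpd against vehicle was 1.90 (adjusted p = 0.0231), 2.56 without LCL161 plus LTα1β2 replicate 1 and 0.55 without its replicate 2, and 11 of the 14 alternative analyses called it. That of Mapkapk2 was 2.78 (adjusted p = 0.00592), 3.46 without LCL161 plus LTα1β2 replicate 1 and 1.34 without its replicate 2. Against LTα1β2 the combination did not pass for Hnrnpd (log2 -1.12, adjusted p = 0.124) or Mapkapk2 (log2 -0.18, adjusted p = 0.823). Zfp36, the gene of tristetraprolin, which speeds the decay of Tnf mRNA, averaged 184.8 ± 19.4 CPM with LCL161 plus LTα1β2, 303.5 ± 18.1 CPM with LTα1β2 and 184.9 ± 34.8 CPM with vehicle (SD, n = 2 each). It rose with LTα1β2 against vehicle (log2 0.72, adjusted p = 0.0113) and fell with the combination against LTα1β2 (log2 -0.72, adjusted p = 0.0106). Its relative Zfp36l1 fell with the combination against LTα1β2 (log2 -1.28, adjusted p = 0.000701). Of the exon bases of Zfp36l1, 1672 (55.9%) overlap Gm26669 on the other strand, and the use of strand in counting was not given. Zfp36l2 also fell with the combination against LTα1β2 (log2 -1.63, adjusted p = 0.0105). Its replicates of the combination were far apart, at 70.5 ± 40.6 CPM (SD, n = 2), and the log2 change was -2.44 without LCL161 plus LTα1β2 replicate 2. Zfp36l2 rose with LTα1β2 against vehicle (log2 2.06, adjusted p = 0.00447). For this gene the combination did not pass against vehicle (log2 0.44, adjusted p = 0.319).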
